A study of Mus musculus with 7 samples.

Results

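Purinergic receptors, the surface proteins through which cells sense extracellular nucleotides and adenosine, were followed together with the ectonucleotidase Entpd1 in retinal microglia (rMG) of Irf8 knockout mice before and after laser injury. The members were 10 genes chosen by name: the P2Y receptor genes P2ry12, P2ry13, P2ry14 and P2ry6, the P2X receptor genes P2rx1, P2rx4 and P2rx7, the adenosine receptor genes Adora1 and Adora3, and Entpd1. Of the 10 members, 9 had a row of their own among the 40743 genes listed, and Adora3 was listed only jointly with the overlapping gene Tmigd3. The 7 libraries came from mice with the genotype Irf8-/- Cx3cr1GFP/+, bred on a C57BL/6J background devoid of the Crb1 mutation, so that the unlasered group also lacked Irf8 by its label and carried GFP in 1 Cx3cr1 allele. There were 3 libraries from unlasered mice and 4 from mice that had received 3 to 6 laser spots in each eye, whose microglia were sorted 7 days later. In the sort, rMG were CD45low, CD11b+ and GFP+ and negative for Ly6C and Ly6G. The cells of each library were a pool of 3 to 4 mice, on average 10000 cells, and nothing in the labels ties a library to single animals. For the lasered mice, only the central 70% of the retina was used, so that the laser and the region of retina cannot be told apart. Ages of the mice were not given in the labels. Wild-type libraries were not analysed here, and all values below describe the change with laser injury within Irf8 KO microglia.

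ATP and ADP leak from damaged cells and act as danger signals. Microglia sense them through P2Y receptors, which couple to G proteins, and through P2X receptors, which are ATP-gated cation channels. The ADP receptor P2Y12 is known for steering microglial processes towards a site of injury and is widely used as a marker of resting microglia. Entpd1 (CD39) splits ATP and ADP on the cell surface, and the AMP that it leaves is turned into adenosine, the ligand of the Adora receptors.

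The deposited values were CPM, read counts that the authors had scaled so that each library summed to 1000000, although their columns were headed TPM. Whole reads could be recovered for 100% of the values, and the libraries held 20427558 to 36022954 reads in the unlasered and 37133297 to 45919042 reads in the lasered group. The 12 microglia markers summed to 29515 to 34592 CPM in unlasered and 27774 to 36043 CPM in lasered libraries, and the groups overlapped. Of these markers, Sall1 was close to absent, with at most 1.36 CPM in any library. Irf8 was listed jointly with Gm20388, a gene that covers it, and held 489 to 530 CPM in unlasered and 463 to 582 CPM in lasered libraries. Which part of Irf8 the knockout lacks is not given in the sources used here, so this level checks no label. Unlasered library 2 stood apart by its rod photoreceptor genes, with a sum of 20191 CPM over 15 genes against 2251 and 5780 CPM in the other unlasered libraries and 321 to 1020 CPM in the lasered libraries.

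None of the 9 listed members passed the test for a change after laser injury (limma on log2(CPM + 1), adjusted p under 0.05), while 6.93% of the 17496 genes tested did. Neither edgeR nor DESeq2 on the recovered reads called any member. At an unadjusted p under 0.05 there were 3 of the 9 members, against 22.7% of all genes tested: P2ry12 and P2ry13 were lower and Adora1 was higher in lasered libraries. The median log2 fold change of the 9 members was -0.08, against -0.01 over all genes tested. All 9 listed members passed the filter of at least 1 CPM in at least 3 libraries. With the thresholds of the study's methods (a log2 fold change past 1.5 and an average of 100 CPM or more in either group) added to the adjusted p, 0 members and 0.269% of all genes tested passed.

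**Figure D1:**
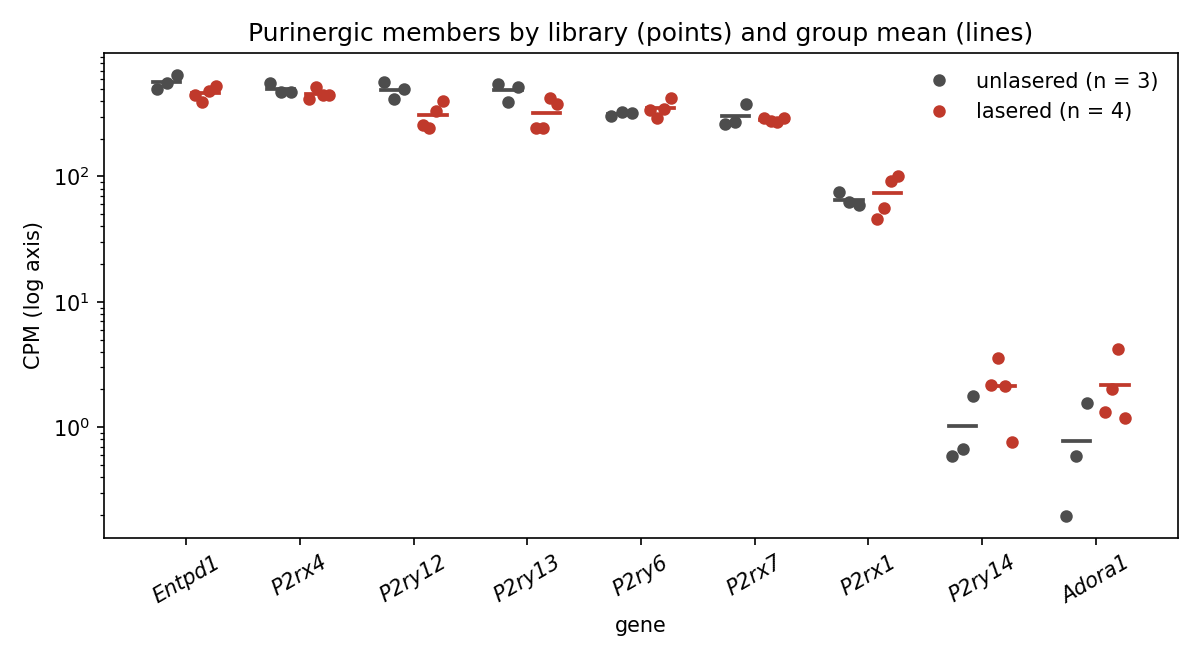
CPM of the 9 listed members in each library on a log axis, with unlasered libraries in grey (n = 3), lasered libraries in red (n = 4) and lines at the group means. All 4 lasered values of P2ry12 sit below the 3 unlasered values, while the points of the other 8 genes overlap between groups.

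P2ry12, the Gi-coupled ADP receptor of microglial processes, had 569, 412 and 498 CPM in unlasered libraries 1, 2 and 3. In lasered libraries 1 to 4 it had 257, 244, 332 and 404 CPM. Every lasered library lay below every unlasered one, although the gap between 404 and 412 CPM was small, and lasered libraries 1 and 2 were the lowest. A non-overlap in this direction was found for 10.7% of all genes tested, and among the members for P2ry12 alone. The means were 493 ± 78.6 CPM (SD, n = 3) and 309 ± 73.7 CPM (SD, n = 4), so that the lasered mean was 0.628 times the unlasered mean. The log2 fold change was -0.69 (SE 0.19, 95% interval -1.12 to -0.25) with an unadjusted p of 0.0061 and an adjusted p of 0.069 in limma, short of the threshold. Without lasered library 4, the lasered library with the highest P2ry12, it was -0.82 with a limma adjusted p of 0.040, which passed.

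P2ry13 encodes another Gi-coupled ADP receptor. Its levels were 547, 395 and 518 CPM in the unlasered libraries and 245, 242, 420 and 377 CPM in the lasered libraries. The groups overlapped, since lasered library 3 lay above unlasered library 2, and lasered libraries 1 and 2 were again the lowest. The log2 fold change was -0.63 (SE 0.22, 95% interval -1.13 to -0.13), with an unadjusted p of 0.019 and an adjusted p of 0.13 in limma. In each library P2ry13 was 0.933 to 1.26 times P2ry12 in CPM.

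Both ADP receptors were also set against the microglia markers. P2ry12 made up 1.64%, 1.40% and 1.56% of the marker sum in the unlasered libraries and 0.887%, 0.880%, 1.01% and 1.12% in the lasered libraries. With every library scaled to the same marker sum, an alternative added after the data were seen, the log2 fold change of P2ry12 was -0.66 with a limma adjusted p of 0.046, which passed the threshold, and that of P2ry13 was -0.60 with an adjusted p of 0.092, which did not pass. Without unlasered library 2, which held the rod signal, the values were -0.81 (adjusted p 0.075) for P2ry12 and -0.77 (adjusted p 0.12) for P2ry13. Fewer cells of a type and less RNA per cell cannot be told apart in such bulk libraries.

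The sums of marker lists named for other cell types are given beside these receptors. The 7 border macrophage markers summed to 2173 to 2713 CPM in unlasered and 1302 to 1575 CPM in lasered libraries, with Cd209f at 0 reads throughout and 2 of 5 tested markers lower by the test. Most of this sum was Ms4a7, Pf4 and Mrc1. Cbr2 had 8.66, 5.14 and 2.83 CPM in unlasered and 14.2, 8.40, 12.6 and 12.4 CPM in lasered libraries, and Cd163 overlapped between groups. Ms4a7 had 1484, 1247 and 906 CPM in unlasered and 562, 902, 665 and 616 CPM in lasered libraries. Pf4 had 636, 550 and 407 CPM in unlasered and 258, 240, 282 and 359 CPM in lasered libraries. The study reported more CD206, the protein of Mrc1, in Irf8-deficient rMG, so Mrc1 does not single out another cell type here. The 7 platelet markers summed to only 9.70 to 19.0 CPM in unlasered and 4.55 to 8.62 CPM in lasered libraries. Platelets are known to carry P2Y12. Of 2 tested platelet markers 1 was lower by the test, Ppbp with 6.07 to 7.98 CPM in unlasered and 2.54 to 4.704 CPM in lasered libraries, and Gp1bb did not exceed 3 reads in any library. Neither list overlapped between groups, and both gave 0.057 in the two-sided exact permutation test, the smallest p that 3 against 4 libraries allow. The monocyte and dendritic cell lists overlapped between groups (two-sided exact permutation p of 0.51 and 0.11). By the test, 0 of 5 tested monocyte markers passed, and 1 of 6 tested dendritic cell markers was higher and 0 lower. Ccl22 had 0.196, 0.0292 and 0.0555 CPM in unlasered and 18.1, 36.4, 8.89 and 3.53 CPM in lasered libraries. Cd209a was also higher in every lasered library, while Flt3, Zbtb46, Xcr1, Clec9a and Ccr7 overlapped. The 7 monocyte markers summed to 203 and 235 CPM in lasered libraries 1 and 2, where P2ry12 was lowest, against 67.1 and 27.3 CPM in lasered libraries 3 and 4 and 45.8 to 108 CPM in unlasered libraries. The 7 dendritic cell markers showed the same 2 libraries highest, with 144 and 168 CPM against 43.0 and 34.5 CPM in the other lasered and 18.3 to 40.9 CPM in the unlasered libraries. The rod, Mueller glia and endothelial lists were also lower in every lasered library than in every unlasered one, with sums of 651 to 945 against 277 to 590 CPM for the 7 Mueller glia markers and 36.5 to 56.8 against 19.1 to 28.5 CPM for the 6 endothelial markers, of which Cldn5 did not exceed 3 reads. By the test, 14 of 15 tested rod, 1 of 6 tested Mueller glia and 1 of 2 tested endothelial markers were lower. Among the Mueller glia markers, Dkk3 alone did not overlap between groups. The part of all these cell types in the receptor levels was not tested.

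P2ry12 and P2ry13 are neighbours. In GRCm38, P2ry12 (ENSMUSG00000036353) spans 59216272 to 59262871 on the minus strand of chromosome 3, P2ry13 (ENSMUSG00000036362) spans 59207892 to 59210882 and P2ry14 (ENSMUSG00000036381) spans 59113855 to 59153618 on the same strand. To show what lies before the starts of these neighbouring ADP receptor genes, the 250 bases upstream of each RefSeq start (GRCm38.p6) are given 5′ to 3′ on the strand of the gene. Capitals mark matches on either strand to letters bound by ETS factors such as PU.1, a master regulator of microglia: GAGGAA and GGAAGT. The motifs share the letters GGAA, so that a single stretch can match both. P2ry12 lies at chr3:59262986-59263235 and P2ry13 at chr3:59210883-59211132, both on the minus strand.
P2ry12: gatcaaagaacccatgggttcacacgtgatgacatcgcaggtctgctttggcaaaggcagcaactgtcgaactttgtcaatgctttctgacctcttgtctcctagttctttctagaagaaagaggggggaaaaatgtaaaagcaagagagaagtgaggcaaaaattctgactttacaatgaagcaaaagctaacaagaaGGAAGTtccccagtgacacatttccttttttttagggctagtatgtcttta
P2ry13: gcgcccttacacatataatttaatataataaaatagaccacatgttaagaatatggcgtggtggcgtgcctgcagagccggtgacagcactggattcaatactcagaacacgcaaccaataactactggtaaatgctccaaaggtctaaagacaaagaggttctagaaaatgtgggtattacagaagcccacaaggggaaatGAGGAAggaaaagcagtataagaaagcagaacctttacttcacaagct
In P2ry12, GGAAGT began 51 bases before the start, and in P2ry13, GAGGAA began 48 bases before it. Among the 9 members with a promoter in the RefSeq table, all but P2ry6, there were 15 listed starts, and GAGGAA was found before 7 of them, in 4 genes, and GGAAGT before 4, in 4 genes. Starts of 1 gene can lie close together and share a match, as in P2ry14 with 4 starts. Over 32851 promoter windows of the same length, 23.2% held GAGGAA and 19.7% held GGAAGT. The paired letters GAAANNGAAA and GGAANNGAAA, which IRF proteins can bind alone or with PU.1, were found in 2.98% and 2.30% of all windows and in 0 of the 15 member windows. These matches are letters in a window and were not tied to binding.

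All of P2ry12, P2ry13 and P2ry14 lie within the span of Med12l, a Mediator subunit gene on the plus strand (59005825 to 59318682). Med12l held 1231, 889 and 1127 CPM in the unlasered libraries and 590, 563, 834 and 845 CPM in the lasered libraries. The sum of the 5 listed genes on the other strand inside this span was 1117, 809 and 1018 CPM in the unlasered and 511, 508, 758 and 782 CPM in the lasered libraries, nearly all of it from P2ry12 and P2ry13. In every library Med12l held 1.08 to 1.15 times this sum. The exons of Med12l and P2ry12 share only 9 bases, and those of Med12l and P2ry13 share 0 bases. Shared exons need not bound what a row holds. Entpd1 and Gm8783, on the same strand, share 0 exonic bases and still had reads listed jointly. Adora1 and Mybph, on opposite strands, share 1162 exonic bases and had no reads listed jointly. The cDNA kit named in the study's methods does not mark strand. Without strand, reads over bases that genes on opposite strands share cannot be told apart. Whether the reads listed for Med12l came from the receptor genes was not tested.

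**Figure D2:**
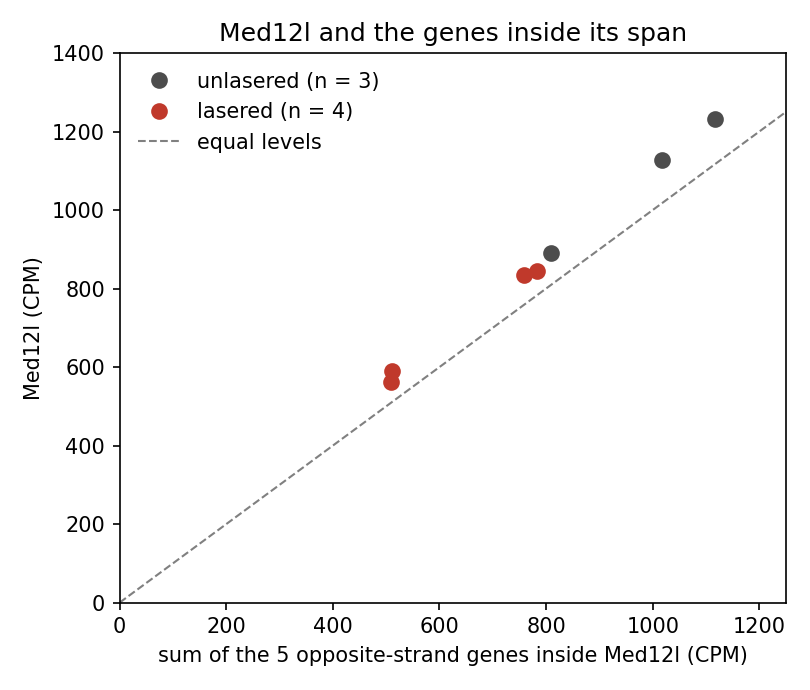
Med12l (CPM) against the sum of the 5 genes on the other strand inside its span (CPM), 1 point per library, unlasered in grey (n = 3) and lasered in red (n = 4), with a dashed line of equal levels. All 7 points lie above the line, with ratios between 1.08 and 1.15, and lasered libraries 1 and 2 are lowest on both axes.

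Among 4095 other genes with a mean of at least 50 CPM, Med12l was also the gene whose pattern over the 7 libraries was most like that of P2ry12. The root mean square difference of the centred log2(CPM + 1) values was 0.079 for Med12l. Whether the Med12l row holds reads of P2ry12 was not tested, so this likeness cannot be read as that of a separate gene. It was 0.130 for Klf10, a transcription factor gene responsive to TGF-beta, and 0.130 for Krr1, which acts in ribosome assembly, while P2ry13 came next with 0.140. Klf10 had 250, 223 and 256 CPM in unlasered and 145, 114, 151 and 184 CPM in lasered libraries. Among Med12l, Klf10, Krr1 and P2ry13, Klf10 alone passed the test, with a log2 fold change of -0.72 (SE 0.16) and a limma adjusted p of 0.035. For Krr1, the log2 fold change was -0.60 with a limma adjusted p of 0.075. These likenesses are a description over 7 libraries that share 1 contrast.

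**Figure D3:**
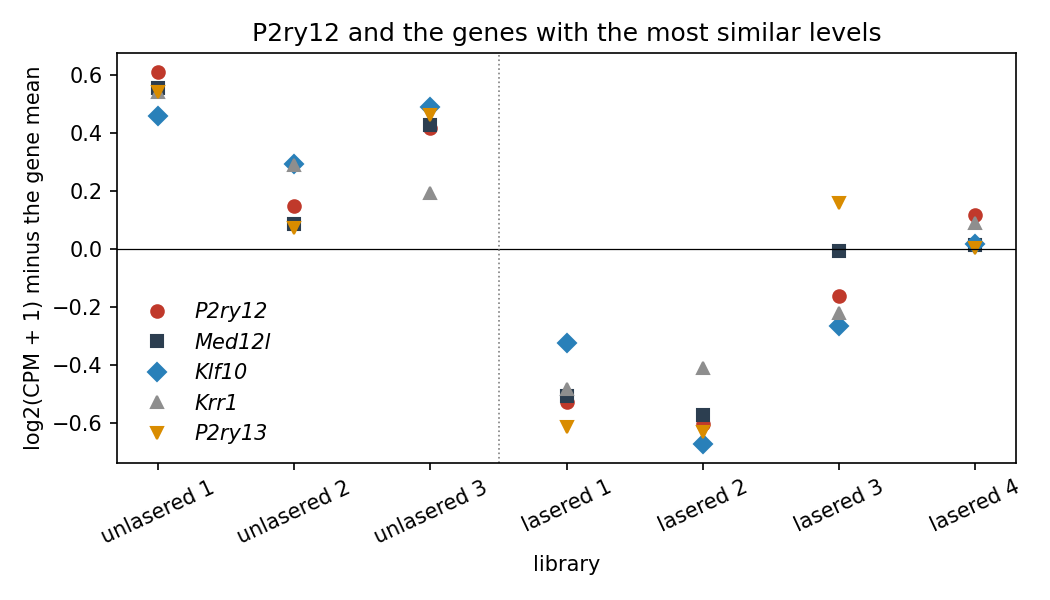
log2(CPM + 1) minus the mean of each gene over the 7 libraries, for P2ry12 and the 4 genes with the most similar pattern, with unlasered libraries left and lasered libraries right of the dotted line. Lasered libraries 1 and 2 are lowest for all 5 genes, and P2ry13 in lasered library 3 departs furthest from P2ry12. Med12l spans P2ry12 on the other strand, and whether its row holds reads of P2ry12 was not tested.

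P2ry6, the Gq-coupled UDP receptor known for phagocytosis, did not share this pattern. It had 304, 328 and 319 CPM in the unlasered libraries. The lasered libraries had 339, 294, 344 and 422 CPM, so that 3 of 4 lay above and 1 lay below all unlasered libraries. Its log2 fold change was 0.13 (95% interval -0.17 to 0.44) with a limma adjusted p of 0.62. The ratio of P2ry6 to P2ry12, formed after the values were seen and given without a test, was 0.533 to 0.797 in unlasered and 1.03 to 1.32 in lasered libraries. P2ry6 (ENSMUSG00000048779, chromosome 7, 100937630 to 100974649, minus strand) holds Gm44545 on the other strand within its span, without shared exons, and this gene had means of 10.6 and 11.6 CPM in unlasered and lasered libraries.

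P2ry14, the receptor for UDP-glucose, was near the bottom of the range. It had 0.587, 0.672 and 1.78 CPM in the unlasered and 2.18, 3.54, 2.11 and 0.754 CPM in the lasered libraries, from 12 to 159 reads per library. The groups overlapped, as lasered library 4 was within the unlasered range, and the log2 fold change of 0.61 had a wide 95% interval of -0.15 to 1.38 (limma adjusted p 0.32). On the log2(CPM + 1) scale, the change of a gene at this level is understated.

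No P2X channel gene passed the test. P2rx4, a channel known from microglia in injured nerve tissue, had 552, 474 and 475 CPM in the unlasered and 413, 516, 449 and 444 CPM in the lasered libraries. Its log2 fold change was -0.14 (95% interval -0.41 to 0.13, limma adjusted p 0.55), and lasered library 2 lay within the unlasered range. P2rx7, the channel that opens at high ATP and drives inflammasome activation, had 265, 270 and 379 CPM in the unlasered and 294, 275, 273 and 292 CPM in the lasered libraries. All lasered values lay within the unlasered range, whose top was unlasered library 3, and the log2 fold change was -0.08 (95% interval -0.41 to 0.24, limma adjusted p 0.78). The sign of P2rx7 turned with TMM scaling, at 0.04, and without unlasered library 3, at 0.08. P2rx7 (ENSMUSG00000029468, 122643911 to 122691432) and P2rx4 (ENSMUSG00000029470, 122707544 to 122729738) are neighbours on the plus strand of chromosome 5, and reads listed jointly for P2rx7 and the microRNA gene Mir8115 within it came to only 4.57 to 7.52 CPM per library.

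P2rx1, a channel best known from platelets and smooth muscle, varied most between lasered libraries among the members above 50 CPM. It had 74.6, 63.0 and 58.9 CPM in the unlasered and 46.1, 55.7, 92.0 and 100.1 CPM in the lasered libraries. Lasered libraries 1 and 2 lay below and lasered libraries 3 and 4 above all unlasered libraries, a coefficient of variation of 36.1% in the lasered against 12.5% in the unlasered group. For P2rx1 the log2 fold change was 0.10 (95% interval -0.50 to 0.70, limma adjusted p 0.87), and its sign turned without lasered library 3, at -0.03, and without lasered library 4, at -0.07. P2rx1 (ENSMUSG00000020787) lies on the plus strand of chromosome 11 (72999103 to 73015200) and overlaps no other annotated gene.

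Adora1, the high-affinity Gi-coupled adenosine receptor, was barely detected. It had 0.196, 0.584 and 1.55 CPM in the unlasered and 1.31, 2.03, 4.20 and 1.18 CPM in the lasered libraries. Unlasered library 1 rested on 4 reads, and 2 lasered libraries lay above and 2 within the unlasered range. The log2 fold change was 0.82 (SE 0.36, 95% interval 0.01 to 1.63), with an unadjusted p of 0.048 and an adjusted p of 0.22 in limma. Adora1 (ENSMUSG00000042429, chromosome 1, 134199223 to 134235431, minus strand) shares 1162 exonic bases with Mybph on the other strand. Mybph was at 0.843 ± 0.964 CPM (SD, n = 3) in unlasered and 1.66 ± 0.918 CPM (SD, n = 4) in lasered libraries. No reads were listed jointly for Adora1 and Mybph. Without strand, it cannot be told which gene gave the reads over the shared bases, whichever row lists them.

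Adora3, another Gi-coupled adenosine receptor and a gene typical of microglia, had no row of its own. The row of Tmigd3, whose exons share 779 bases with Adora3 on the same strand, held its own reads and those listed jointly with Adora3. This row had 10.3, 6.86 and 10.2 CPM in the unlasered and 13.7, 11.3, 13.7 and 7.33 CPM in the lasered libraries. The groups overlapped, with a log2 fold change of 0.29 (SE 0.25, limma adjusted p 0.54), and a level of Adora3 itself was not obtained.

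Entpd1, the ATP- and ADP-splitting enzyme, had 497, 557 and 645 CPM in the unlasered and 444, 396, 485 and 524 CPM in the lasered libraries. Of the lasered libraries, 3 lay below all unlasered ones, while lasered library 4 was within their range. The means were 566 ± 74.3 CPM (SD, n = 3) and 462 ± 54.9 CPM (SD, n = 4), and the log2 fold change was -0.29 (95% interval -0.60 to 0.02) at a limma adjusted p of 0.25. Entpd1 (ENSMUSG00000048120) lies on the plus strand of chromosome 19 (40612366 to 40741602). Reads listed jointly with the pseudogene Gm8783 in its span added 8.42 to 13.3 CPM per library.

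Levels can be compared between genes only per length, and were therefore divided by the exonic length of each gene. In unlasered libraries, P2ry12 led with 194 ± 30.9 CPM per kb (SD, n = 3) and P2ry13 followed with 193 ± 31.9 CPM per kb (SD, n = 3), with overlapping ranges. P2ry6 and Entpd1 came next with 110 and 101.5 CPM per kb, also overlapping, and the ranges of P2rx4, P2rx7 and P2rx1 at 71.3, 51.0 and 24.9 CPM per kb were each apart from the next. Adora1 and P2ry14 had 0.135 and 0.0915 CPM per kb and overlapped. In lasered libraries the order was the same except that P2ry13 with 127 ± 35.9 CPM per kb and P2ry12 with 122 ± 29.0 CPM per kb (SD, n = 4) changed places. The ranges of P2ry12 and P2ry6, the latter at 121 ± 18.4 CPM per kb (SD, n = 4), then overlapped, as did those of Entpd1 and P2rx4. These values divide by all annotated exons of a gene, whichever transcripts the cells used. Entpd1 had reads listed jointly with Gm8783, which shares 0 exonic bases with it. Rows may therefore also hold reads from outside these exons, which this length does not cover.

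In 4 further lists of the pathway with 42 genes, 41 were listed and 28 passed the filter. By the test, 3 of these were higher and 0 lower after laser injury, against 6.93% of all genes tested in either direction. Their median log2 fold change was 0.13, against -0.01 over all genes tested, and 5 of the 28 had every lasered above every unlasered library, against 10.4% of all genes tested. These 5 were P2ry2, Entpd7, Ada, Gnas and Gnai2.

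The one receptor that passed was P2ry2, the Gq-coupled receptor for ATP and UTP. It had 0.441, 1.55 and 1.28 CPM in the unlasered libraries, from 9, 53 and 46 reads. In the lasered libraries it had 12.6, 8.89, 16.7 and 12.01 CPM, from 399 to 765 reads. Every lasered library was far above every unlasered one, and the lasered mean of 12.5 ± 3.19 CPM (SD, n = 4) was 11.5 times the unlasered mean of 1.09 ± 0.577 CPM (SD, n = 3). On the log2 scale the change was 2.71 (SE 0.27, 95% interval 2.10 to 3.32) with a limma adjusted p of 0.0024, and the call held when any 1 of the 7 libraries was left out. P2ry2 (ENSMUSG00000032860, chromosome 7, 100996568 to 101012866, minus strand) remained at 3.20 CPM per kb after laser, below each of the 7 better expressed members. Neutrophils are known to carry P2Y2, and among the 7 neutrophil markers, summing to 0.380 to 11.1 CPM in unlasered and 2.24 to 18.8 CPM in lasered libraries, Mmp8 and Cxcr2 passed the test as higher while Ly6g, Retnlg and Ngp did not exceed 3 reads in any library. S100a8 and S100a9 of the same list overlapped between groups. S100a8 had 7.20, 0.0876 and 0.888 CPM in unlasered and 1.74, 6.86, 0.283 and 0.269 CPM in lasered libraries. S100a9 had 3.48, 0.175 and 0 CPM in unlasered and 0.408, 1.18, 0 and 0 CPM in lasered libraries. The part of neutrophils in P2ry2 was not tested.

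The 3 other tested genes of that receptor list, P2ry10, P2rx6 and Adora2b, named after their values were seen, did not pass. Of the 8 tested ectoenzymes, which split nucleotides outside the cell or in its organelles, 0 passed and the median log2 fold change was 0.04. At an unadjusted p under 0.05 there were 2 of them, the ectoenzyme genes Entpd7 and Alpl, named here after their values were seen. Alpl, an alkaline phosphatase gene, had 3.52, 63.7 and 19.3 CPM in unlasered and 4.64, 1.16, 0.958 and 0.323 CPM in lasered libraries, and its highest value came from unlasered library 2, the library with the most rod signal. Nt5e (CD73), the enzyme that makes adenosine from AMP and is also a rod gene, likewise named after its values were seen, had 3.87, 52.0 and 24.9 CPM in unlasered and 33.6, 29.6, 33.5 and 15.5 CPM in lasered libraries, with overlapping groups and a limma adjusted p of 0.68.

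Of 8 tested genes for release, transport and breakdown, 0 passed in limma and 1 had an unadjusted p under 0.05, and the median log2 fold change was -0.15. That gene was Ada, the adenosine deaminase, named after its values were seen, with 14.7, 18.7 and 18.2 CPM in unlasered and 26.3, 30.3, 23.1 and 26.6 CPM in lasered libraries. Its groups did not overlap, and its log2 fold change was 0.60 (SE 0.16, limma adjusted p 0.058). The nucleoside transporter gene Slc29a1 had means of 257 and 218 CPM (adjusted p 0.40), the lysosomal transporter gene Slc29a3 had 183 and 184 CPM (adjusted p 0.87) and the purine nucleoside phosphorylase gene Pnp had 113 and 118 CPM (adjusted p 0.78) in unlasered and lasered libraries, by limma.

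Among 8 signalling partners, Gnas and Gnai2 rose. Gnas, which encodes the stimulatory Gs alpha subunit, had 368, 332 and 328 CPM in unlasered and 466, 439, 512 and 561 CPM in lasered libraries, with no overlap. Its log2 fold change was 0.52 (SE 0.12) with a limma adjusted p of 0.037. The Gnas locus is also known for antisense transcripts, whose reads over shared bases cannot be told apart without strand. Gnai2, which encodes the Gi alpha subunit used by receptors such as P2Y12, had 717, 731 and 719 CPM in unlasered and 992, 1118, 877 and 942 CPM in lasered libraries, also with no overlap. Its log2 fold change was 0.44 (SE 0.11) with a limma adjusted p of 0.0498, just under the threshold, and its row included reads listed jointly with an overlapping gene. Both calls were lost with edgeR (adjusted p 0.055 for Gnas and 0.0505 for Gnai2) and when any 1 of the 7 libraries was left out, where limma gave adjusted p of 0.055 to 0.098 for Gnas and 0.061 to 0.14 for Gnai2. The other partners above 100 CPM did not pass, with log2 fold changes of 0.11 for Gnai3, 0.33 for Gnaq and -0.32 for Gna15 and limma adjusted p of 0.66, 0.17 and 0.23. Kcnk13, the potassium channel THIK-1 on which microglial surveillance depends, named after its values were seen, had a log2 fold change of 0.14 with a limma adjusted p of 0.63.

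**Figure D4:**
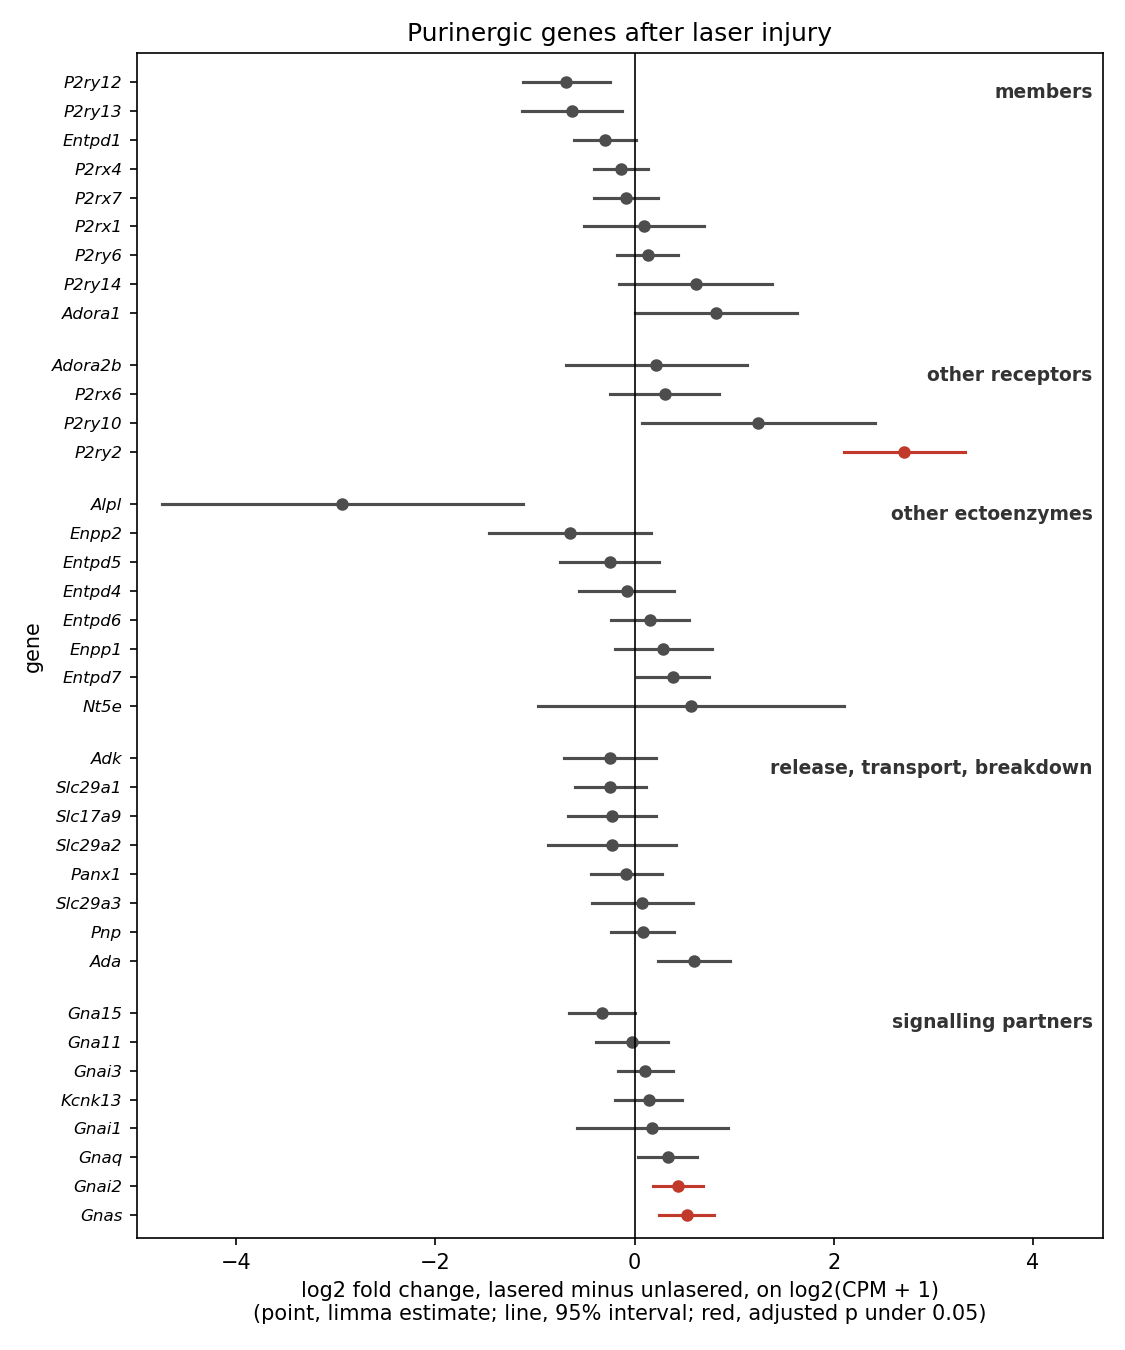
Log2 fold change, lasered minus unlasered, of the 9 listed members and the 28 other purinergic genes tested, with 95% intervals from limma and genes with an adjusted p under 0.05 in red. P2ry12 and P2ry13 have the lowest estimates of the members, at -0.69 and -0.63, and P2ry2 at 2.71 stands above all other genes shown.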

How the data were processed

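RNA-seq was performed on sorted rMG of 3 unlasered and 4 lasered groups of mice. Per the study's methods, the authors trimmed with cutadapt, dropped duplicate reads (FastUniq), aligned with bowtie2 and ran HTSeq on gene annotation version 90. The submitters' processing notes name GRCm38 as the build. The deposited values were headed TPM but are CPM, since all values of a library were whole multiples of 1 step (100% of values within 0.1 read). The step gave 20427558 to 45919042 reads per library. A floor of 3 reads was 0.0653 to 0.147 CPM per library, which covers counting error only. Whether replicates of a group came from separate experiments is not stated, so p-values measure the spread between these pools.

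The members were rows whose symbol equalled a member name, and the members and gene lists were chosen with earlier results of these data known. Named genes were all members, other purinergic genes that passed the test or averaged 100 CPM or more in either group, genes overlapping a member, and the 3 genes most like P2ry12. P2ry10, P2rx6, Adora2b, Entpd7, Alpl, Nt5e, Ada, Kcnk13 and Gpr171 fall outside this rule and were named after their values were seen, and marker genes are named from their lists. CPM were tested with limma 3.58.1 (R 4.3.3, statmod 1.5.0) on log2(CPM + 1), using robust empirical Bayes with a trend, in the 17496 genes that reached 1 CPM in 3 or more libraries. Tests were two-sided with Benjamini-Hochberg adjustment over all genes tested, and fold changes are on the log2(CPM + 1) scale, which understates those of low genes. The script was tested on simulated data. Of 194 changed genes tested there, limma called 8.76% at a true 2-fold change and 83.0% at a true 4-fold change. Alternatives were edgeR 4.0.16 and DESeq2 1.42.0 on recovered reads, a pseudocount of 0.1, other filters and scalings, a replicate block, and leaving out each library. Scaling to microglia markers and adding joint reads were added after the data were seen. Coordinates are from GENCODE (GRCm38), whose identifiers matched 99.2% of the genes listed, and promoters from RefSeq (GRCm38.p6). Tables and figures were made in Python 3.11.15 (pandas 2.3.3, matplotlib 3.10.9).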

Additional observations from a re-analysis of the deposited data

Results flagged for a closer look

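Among 20 genes whose lasered libraries were checked for 1 value far from the other 3, Gna15, which encodes a Gq-class alpha subunit, was the one that stood apart. Lasered library 4 had 167 CPM, against 122, 124 and 125 CPM in lasered libraries 1, 2 and 3 and 151 to 181 CPM in unlasered libraries. Chance flags about 1 in 20 such groups, and no cause was tested.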

How the results depend on the processing

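The direction of P2ry12, P2ry13, P2ry14, P2ry6, P2rx4, Adora1, Entpd1 and P2ry2 was the same under every alternative run. The log2 fold change of P2ry12 ranged from -0.82 to -0.56 with adjusted p from 0.040 to 0.19, and passed without lasered library 4 and with microglia marker scaling. That of P2ry13 ranged from -0.77 to -0.50 with adjusted p from 0.092 to 0.30. P2rx1 reversed with the replicate block, at -0.073, and ranged from -0.073 to 0.29 when single libraries were left out. P2rx7 reversed to 0.039 with TMM scaling and ranged from -0.18 to 0.082 when single libraries were left out. The sign also turned when single libraries were left out for Slc29a3 (-0.11 to 0.39) and Pnp (-0.034 to 0.21), and the adjusted p of these 4 genes were above 0.05 in all alternatives. P2ry2 passed in 15 of 16 alternatives, Gnas in 6 and Gnai2 in 4. For the listed members, counting only reads listed for a gene alone equals the values reported, and adding joint reads left 0 members called. The rows of Gnai2 and Tmigd3 include joint reads, and no count without these reads was made.

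The count of members called was 0 to 1 when single libraries were left out and 1 with microglia marker scaling. The count of other purinergic genes called was 3 as reported, 1 without the filter, 9 with DESeq2 and 1 to 2 when single libraries were left out. Over all genes, 1213 were called as reported, with 676 higher and 537 lower. There were 385 without the filter, 3199 with DESeq2, 503 with microglia marker scaling and 264 to 1248 when single libraries were left out. The split was 1045 higher and 472 lower with TMM scaling, which moved the median of all genes to 0.10, and 935 and 504 with median-of-ratios scaling. The cause was not tested.

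Libraries with the same number did not deviate together (correlations of -0.18, -0.13 and -0.02), and the numbers were not taken as pairs in the main test. Such correlations over all tested genes cannot exclude a shared experiment behind the numbers. With the replicate block, which leaves out lasered library 4, 3 genes, 0 members and 0 other purinergic genes were called, and P2ry12 had -0.82 with an adjusted p of 0.10 and P2ry2 2.72 with an adjusted p of 0.071. Pools of mice limit these comparisons to 3 against 4 libraries, and P2ry14 and Adora1 rest on 4 to 193 reads per library.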

Other observations

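Gpr171, a G protein-coupled receptor gene on the minus strand beside P2ry14 and within the Med12l span, passed the test as higher in lasered libraries and was named after its values were seen. It had 0.0490, 0.789 and 0.0278 CPM in unlasered libraries 1, 2 and 3, from 1, 27 and 1 reads. The lasered libraries had 6.05, 18.0, 4.01 and 1.37 CPM, all above the unlasered ones, with lasered library 2 the highest and lasered library 4 the lowest. Its log2 fold change was 2.34 (SE 0.59) with a limma adjusted p of 0.048, and 6 of 16 alternatives kept the call. When single libraries were left out, the limma adjusted p was 0.024 to 0.12, and it passed only without lasered library 4. The monocyte marker sums of lasered libraries 1 to 4 (203, 235, 67.1 and 27.3 CPM) and the dendritic cell marker sums (144, 168, 43.0 and 34.5 CPM) had the same order as Gpr171, and their part in it was not tested. P2ry12 and P2ry13 in the same span did not pass the test.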
